A study of Papio hamadryas with 17 samples.

Results

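The kidney moves water through aquaporins, channel proteins of the cell membrane, and vasopressin sets how much water the collecting duct takes back. Described here are 7 aquaporin genes and AVPR2, the V2 vasopressin receptor, which make up 8 of the 9818 genes with transcripts in both deposited tables. Members were taken by gene name, with earlier results of these data known. All 13 of their transcripts were present in both tables, and transcripts of 1 gene were added up. AQP1, AQP7 and AQP11 are known from the proximal tubule, AQP2, AQP3, AVPR2 and AQP6 from the collecting duct, and AQP4 from skeletal muscle besides the kidney.

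RNA was sequenced from ultrasound-guided biopsies of the kidney cortex of 17 baboons (Papio hamadryas), 8 females and 9 males, each giving 1 library. No animal was treated, and all were fed a low-salt chow for life. The females were aged 15 to 19 and the males 6 to 13, in a unit that the labels do not give. The library names form 1 series for the females and 2 for the males, series A with 5 libraries and series B with 4, so that sex, age and library series cannot be told apart.

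In the proximal tubule, AQP1 lets water follow reabsorbed salt through both faces of the cell. In principal cells of the collecting duct, vasopressin acts on AVPR2, which raises cyclic AMP through a stimulatory G protein, and AQP2 vesicles then fuse with the apical membrane. Water leaves these cells through AQP3 on the basolateral side.

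Values are deposited signal with the offset of 1 removed, a scaled abundance without a known length correction, so levels were not compared between genes. Over the transcripts in both tables, libraries of females summed to 259197 to 670142 and libraries of males to 264577 to 540174. Female 1, female 2 and male 6 are called muscle-rich here and were kept apart. Of 12 skeletal muscle genes listed, 2 were in both tables, and together they reached 54350 to 111200 in these 3 libraries but no more than 21.9 elsewhere. The same 3 libraries, labelled kidney cortex, had a mean log2(signal + 1) of 12 proximal tubule markers of 1.65 to 3.46, against 7.54 to 8.82 in the other 8 males. Among their 10 intercalated cell markers, FOXI1, SLC26A4, ATP6V1G3 and ATP6V1C2 were below a signal of 1 in all 3. Female 3 also stood apart from the other 5 females without high muscle genes. Its proximal tubule marker level was 2.98, against 6.14 to 7.70, and its summed signal of thick ascending limb markers was 11690, the highest of the 17 libraries.

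AQP1 (NC_018154.2, 80604541 to 80618236, minus strand, 1 transcript) carries most proximal tubule water flow and is also known from the thin descending limb, capillaries and red blood cells. Outside the muscle-rich libraries its signal in 6 females was 388.9 at the lowest, 626.6 at the median and 901.7 at the highest. In 8 males it was 667.2 at the lowest, 1144 at the median and 1608 at the highest. Thus 5 males lay above every female and 3 females below every male, while the rest overlapped. Female 1 and female 2 had the 2 lowest values of all, 188.6 and 169.7, and male 6 with 396.5 lay below every other male. Means over all animals were 516 ± 279 (SD, n = 8) for females and 1044 ± 415 (SD, n = 9) for males.

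AQP1 did not pass the threshold of an adjusted p of 0.05 over the 17 libraries, with a log2 difference of -1.12 ± 0.37 (SE) for females minus males and an adjusted p of 0.0539 (limma with Benjamini-Hochberg adjustment over 9414 genes). Without the 3 muscle-rich libraries AQP1 was higher in males, with a difference of -0.85 ± 0.27 (SE) and an adjusted p of 0.0194. After each of these 14 libraries was scaled to 1 median the difference was -0.39 and the adjusted p 0.189, and against the 5 males of series A it was -0.57 and 0.161. Against the 3 males of series B it was -1.31 with an adjusted p of 0.00999, a value over 1.5 times that against series A. Red blood cell markers, of which 4 of 6 listed were in both tables, summed to 214.1 to 731.7 in these 6 females and 224.8 to 981.4 in the 8 males. Of these 4, HBA1 and ALAS2 were called as higher in males over the 14 libraries (limma), and the median difference of the 4 was -1.25. SLC4A1, another of the 4, is also among the intercalated cell markers used here. As a description with no test, the Pearson r of AQP1 over the 14 libraries was 0.69 with red blood cell markers and 0.51 with proximal tubule markers. In the same order r was 0.72 and 0.89 within the 8 males, and 0.31 and -0.21 within the 6 females. Other segments gave similar values, with 0.50 for intercalated cell and 0.48 for principal cell markers over the 14 libraries. For these 2 lists r was 0.74 and 0.54 within the 8 males, and -0.20 and 0.48 within the 6 females. Endothelial markers, 5 of 7, summed to 115.6 to 185.6 and 99.5 to 170.4, and the part of either cell type in the AQP1 values was not tested.

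AQP7 (NC_018166.2, 42537938 to 42558829, plus strand, 3 transcripts) is an aquaglyceroporin, a channel for glycerol as well as water, known from the straight proximal tubule and from fat cells. In the 6 females its signal was 1.80 at the lowest, 19.3 at the median and 28.0 at the highest. The 8 males ranged from 17.2 through a median of 33.9 to 41.2. Of these males 7 lay above every female, and the lowest, male 2, fell among them. The muscle-rich libraries reached 51.8 in female 1, 47.0 in female 2 and 32.3 in male 6, so that both muscle-rich females exceeded every other library.

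Over 17 libraries the AQP7 difference was -0.67 ± 0.42 (SE) with an adjusted p of 0.310 (limma), which did not pass, and it was -0.26 without female 3. Over the 14 libraries it was -1.10 ± 0.40 (SE) with an adjusted p of 0.0380, and AQP7 was higher in males. That value was -0.61 (adjusted p 0.0166) without female 3, the lowest library. With the 14 libraries scaled to 1 median it was -0.66 and the adjusted p 0.257. Against series A or series B alone it was -1.0 and -1.27, with adjusted p-values of 0.166 and 0.128.

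AQP11 (NC_018165.2, 67798259 to 67816062, plus strand, 1 transcript) lies in membranes inside the cell and is known from the proximal tubule. Its 6 female values ran from 0.320 in female 3 through a median of 1.30 to 3.94 in female 7. The 8 males ran from 4.09 in male 2 through a median of 5.57 to 8.81 in male 7. All 6 females therefore lay below all 8 males, a separation in that direction found in 12.2% of the 9194 genes tested in these libraries. Signal was 0.00071 in female 1, 1.94 in female 2 and 0.0174 in male 6, the last far below the other males.

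AQP11 was the 1 member called over all 17 libraries, at -1.21 ± 0.39 (SE) and an adjusted p of 0.0473 (limma), where 13.6% of all genes tested passed and 13.2% passed as higher in males. Of 7 members tested 1 passed, a share near that background. Without the muscle-rich libraries the difference was -1.37 ± 0.25 (SE) with an adjusted p of 0.000594, and with scaling to 1 median -1.04 with an adjusted p of 0.0075. The 17-library p lay close to the threshold. When each library was left out in turn the difference was -1.51 to -1.04, and the call held in 3 of 17 fits, those without female 6, female 7 or male 6, with adjusted p-values of 0.00104 to 0.0958. Over the 14 libraries it held in all 14 such fits, with adjusted p-values from 0.000151 to 0.00203. Against series A alone, where 7.24% of all genes passed, the value of all 8 females was -1.35 (adjusted p 0.0277). Against series B alone, where 0.0118% passed, it was -1.05 (adjusted p 0.389). Over the 14 libraries AQP11 passed against either series, at -1.2 (adjusted p 0.011) against series A, where 21.7% of all genes passed, and -1.65 (adjusted p 0.00714) against series B, where 35% passed. With age as a term, which overlaps with sex, the 17-library value turned to 0.80 (adjusted p 0.721).

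Without the muscle-rich libraries 3 of the 7 members tested were called, AQP1, AQP7 and AQP11, all higher in males. Of all genes 39.3% passed in these libraries, 37% as higher in males and 2.27% as higher in females. With scaling to 1 median 30.3% passed, and the 2 members called were AQP11, higher in males as 15.2% of all genes were, and AQP6, a collecting duct gene.

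**Figure D1:**
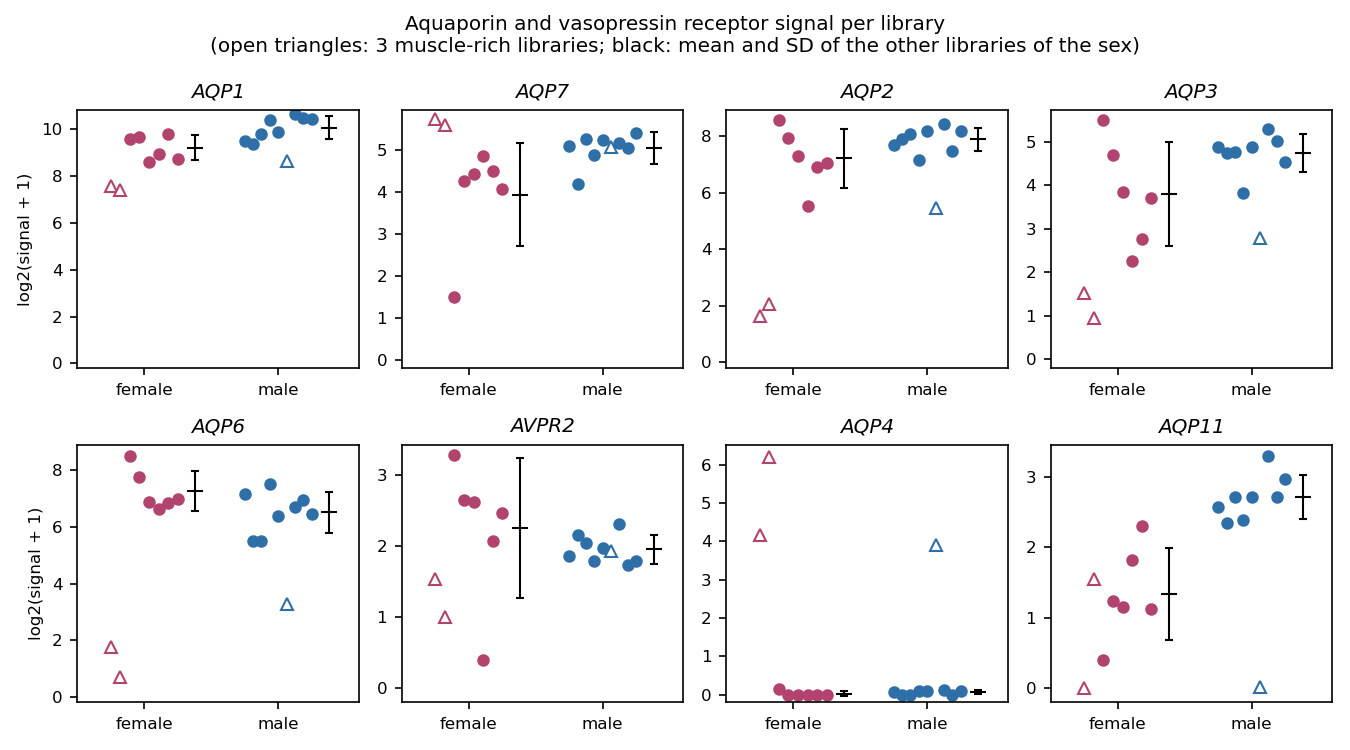
Signal of the 8 members on the log2(signal + 1) scale, 1 panel per gene, with 1 point per library in females (pink) and males (blue). Open triangles are the 3 muscle-rich libraries, and black bars give the mean and SD of the other 6 females and 8 males. AQP11 shows no overlap between these 6 females and 8 males, and AQP4 exceeds 1 in the 3 triangles only.

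Beside these proximal members, the proximal tubule markers themselves were lower in females. Over the 14 libraries 11 of 12 were called, all higher in males, beside 37% of all genes in that direction. Their median log2 difference was -1.99 beside a median of -0.35 for all genes. Over 17 libraries 4 of 12 were called as higher in males, beside 13.2% of all genes. With scaling to 1 median 7 of 12 were called so over the 14 libraries, beside 15.2% of all genes. Scaling all 17 left 1 of 12, where 4.13% of all genes were called in either direction. In bulk tissue fewer cells of a type and less RNA per cell cannot be told apart. AQP1, AQP7, AQP2, AQP3, AVPR2 and AQP6 were therefore each set against the mean log2 level of their segment's markers in the same library. This gave 6 tests with adjusted p-values over the 6. AQP11 was not set against markers in this way. As a description with no test, its Pearson r with proximal tubule markers was 0.91 over the 14 libraries. That r was 0.89 in the females and 0.54 in the males of these libraries. Relative to proximal tubule markers AQP1 averaged 3.04 ± 1.86 (SD, n = 6) over females and 1.72 ± 0.225 (SD, n = 8) over males, 1.31 apart (two-sided exact permutation test, adjusted p 0.02). Without female 3 they were 0.60 apart (exact permutation test, adjusted p 0.0357). AQP7 relative to the same markers averaged -2.26 ± 0.57 (SD, n = 6) over females and -3.31 ± 0.46 (SD, n = 8) over males, 1.06 apart (exact permutation test, adjusted p 0.02). Over these 14 libraries both genes were thus lower in females in signal and higher in females relative to their segment's markers. Over all 17 libraries neither relative difference passed, with adjusted p-values of 0.122 for AQP1 and 0.168 for AQP7 in the exact permutation test.

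In female 3 the 3 proximal genes parted. Its AQP1 signal of 764.2 exceeded the female median, while its AQP7 of 1.80 and AQP11 of 0.320 were the lowest of the 6 females.

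**Figure D2:**
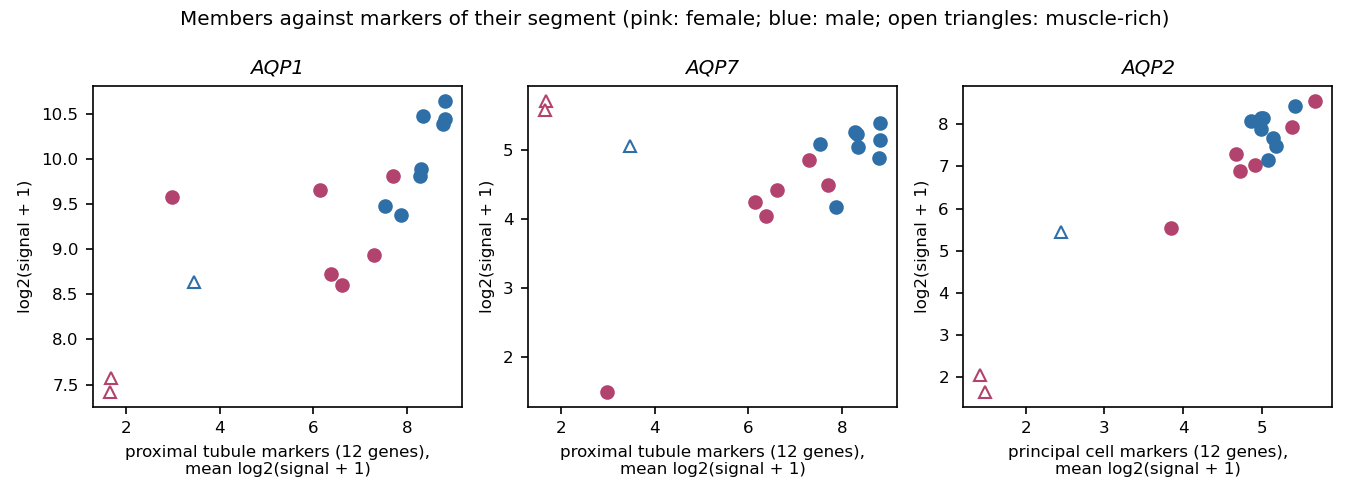
Level of AQP1, AQP7 and AQP2 (vertical axes, log2(signal + 1)) against the mean log2(signal + 1) of 12 markers of their segment (horizontal axes), 1 point per library, females pink, males blue, muscle-rich libraries as open triangles. Female 3, the filled pink point at a marker level of 2.98, lies at the bottom for AQP7 but not for AQP1.

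Transcript values of AQP7 separated the muscle-rich libraries. Variant X1 had a signal of 15.4, 7.99 and 10.7 in female 1, female 2 and male 6. Elsewhere it was at most 5.60, in male 7, and it was listed at 0 in 3 females. As a share of AQP7 signal X1 was 17.0% to 33.2% in the muscle-rich libraries and 0% to 16.2% in the others. Variant X3 made up 65.5% to 99.97% of the signal in the other 14. Fat markers were high in the same 3 libraries as X1 and as the muscle markers. Of the 6 listed 3 were in both tables, and they summed to 195.6 to 368.4 in the muscle-rich libraries, 0.538 to 3.45 in the other females and 0.0923 to 2.60 in the other males. ADIPOQ, the fat hormone adiponectin, was 15.3, 46.9 and 28.2 in the 3 libraries and at most 0.0988 elsewhere. Within the 3 libraries X1 ran in the reverse order of ADIPOQ. The other fat markers, FABP4 (315, 277 and 139) and CIDEC (37.9, 34.6 and 28.0), were highest in female 1, as X1 was. Male 7, highest in X1 among the other 14, had the lowest fat marker sum of all. The part of fat or muscle in the AQP7 values was not tested.

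**Figure D3:**
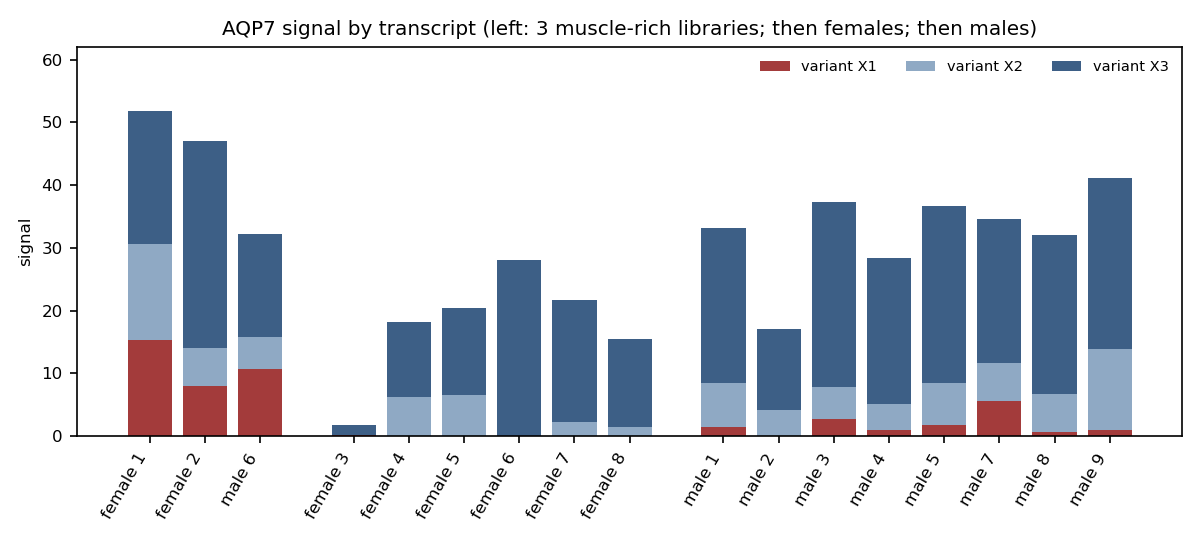
AQP7 signal per library as stacked bars by transcript variant, with the 3 muscle-rich libraries at the left, then 6 females and 8 males. Variant X1 (red) reaches 7.99 to 15.4 at the left and at most 5.60 elsewhere.

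AQP2 (NC_018162.2, 46050166 to 46060364, plus strand, 3 transcripts) is the channel that vasopressin moves to the apical membrane of principal cells. Its signal in the 6 females was 45.2 at the lowest, in female 6, 142.7 at the median and 376.4 at the highest, in female 3. Males ranged from 141.1 in male 4 through a median of 252.1 to 345.0 in male 7. The sexes overlapped, with 3 females below every male and 1 above. The muscle-rich libraries held 2.13, 3.16 and 42.6, the 3 lowest values.

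The AQP2 difference was -1.74 ± 0.85 (SE) over 17 libraries, with an adjusted p of 0.184, and -0.67 ± 0.35 (SE) over 14, with an adjusted p of 0.145 (limma). Neither passed. Leaving out female 3, the library highest in AQP2, gave -0.94 over the remaining 13 with an adjusted p of 0.0233, the 1 such fit of 14 that passed. Leaving out female 6, the lowest of the 14, gave -0.34 with an adjusted p of 0.369.

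AQP3 (NC_018166.2, 42490281 to 42496705, plus strand, 1 transcript) is the basolateral exit for water and glycerol. Its 6 female values ranged from 3.82 in female 6 through a median of 12.8 to 44.3 in female 3. In the 8 males it was 13.2 at the lowest, in male 4, 27.3 at the median and 38.1 at the highest, in male 7. As with AQP2, 3 females lay below every male and 1 above. The muscle-rich libraries had 1.89, 0.947 and 5.87.

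Differences of AQP3 were -1.37 ± 0.54 (SE, adjusted p 0.101) over 17 libraries and -0.95 ± 0.40 (SE, adjusted p 0.0689) over 14 in limma, and neither passed. Without female 3 the 14-library value was -1.29 with an adjusted p of 0.00586, and the 17-library value -1.70 with an adjusted p of 0.0350. Without male 6 the 17-library adjusted p was 0.0351.

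AVPR2 (NC_018172.2, 141929243 to 141932871, plus strand, 1 transcript) is the receptor upstream of AQP2. Its signal was low throughout. Among the 6 females it was 0.318 in female 6, 4.81 at the median and 8.69 in female 3. Among the 8 males it was 2.32 at the lowest, 2.76 at the median and 3.95 at the highest, the smallest spread relative to its mean (CV 19.6%) of the 7 tested members in these males. Thus 4 females lay above every male and 1 below. The muscle-rich libraries had 1.89, 1.01 and 2.81, the last within the range of the other males.

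No difference passed for AVPR2, at 0.05 ± 0.31 (SE, adjusted p 0.938) over 17 libraries and 0.29 ± 0.32 (SE, adjusted p 0.495) over 14 in limma. Single libraries moved this value. Without female 6, the lowest, the 14-library difference was 0.66 with an adjusted p of 0.0119, and without female 3, the highest, it was 0.09 with an adjusted p of 0.839.

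Of the 12 principal cell markers 0 were called over 17 or over 14 libraries (limma), where 13.6% and 39.3% of all genes were called. Their median difference over the 14 was -0.32, beside -0.35 for all genes. With the 14 libraries scaled to 1 median, 3 of 12 were called as higher in females, beside 15.1% of all genes. These were SCNN1A, GATA3 and TFCP2L1, and the median difference of the 12 was then 0.06. Without scaling, the mean log2 level of the 12 was 3.84 to 5.68 in the 6 females, 4.87 to 5.43 in the 8 males and 1.42 to 2.45 in the muscle-rich libraries. Relative to these markers AQP2 averaged 1.85 ± 0.97 (SD, n = 8) over all females and 2.81 ± 0.41 (SD, n = 9) over all males, -0.96 apart (exact permutation test, p 0.00921, adjusted p 0.0553). Over the 14 libraries it was -0.45 (exact permutation test, adjusted p 0.0766). AQP3 relative to them averaged -1.07 ± 0.64 (SD, n = 6) over females and -0.34 ± 0.39 (SD, n = 8) over males, -0.73 apart (exact permutation test, adjusted p 0.0284). AVPR2 went the other way, at -2.63 ± 0.46 (SD, n = 6) over females and -3.14 ± 0.22 (SD, n = 8) over males, 0.51 apart (exact permutation test, adjusted p 0.0284). So over the 14 libraries AQP3 was lower and AVPR2 higher in females relative to principal cell markers. Over all 17 libraries neither passed, with adjusted p-values of 0.122 and 0.168 in the exact permutation test. Against the males of series A or series B alone none of the 6 relative values passed, over the 17 or the 14 libraries. Among the 14, series B allowed 84 splits, whose smallest p is 0.0119, so 1 member alone could not pass there. AQP7 reached that p (exact permutation test, adjusted p 0.0714).

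AQP6 (NC_018162.2, 46070898 to 46078614, plus strand, 2 transcripts) is an anion-permeable aquaporin of vesicles inside acid-secreting intercalated cells. Its gene began 10533 bases after the end of AQP2 on the same strand. In the 6 females its signal was 99.6 at the lowest, 120.8 at the median and 366.2 at the highest, in female 3. In the 8 males it was 44.1 at the lowest, 94.6 at the median and 182.2 at the highest. Here 4 males lay below every female and 2 females above every male. The muscle-rich libraries had 2.37, 0.631 and 8.81.

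AQP6 changed direction with the libraries used. Over all 17 the difference was -0.40 ± 0.97 (SE, adjusted p 0.827), and over the 14 it was 0.75 ± 0.35 (SE, adjusted p 0.0962), neither passing in limma. Scaling the 14 libraries to 1 median gave 1.21 ± 0.31 (SE) and an adjusted p of 0.00984, higher in females, where 15.1% of genes passed in that direction. Relative to 10 intercalated cell markers AQP6 averaged 2.1 ± 0.96 (SD, n = 6) over females and 0.99 ± 0.69 (SD, n = 8) over males, 1.11 apart (exact permutation test, adjusted p 0.0284). Without female 3 this was 0.81 (exact permutation test, adjusted p 0.0583), and over all 17 libraries it was 0.64 (exact permutation test, adjusted p 0.188). AQP6 did not vary with these markers over the 14 libraries, where its Pearson r was -0.09, a description with no test. That r was -0.30 within the females and 0.40 within the males. With principal cell markers it was 0.43 over the 14, 0.88 within the females and 0.54 within the males.

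**Figure D4:**
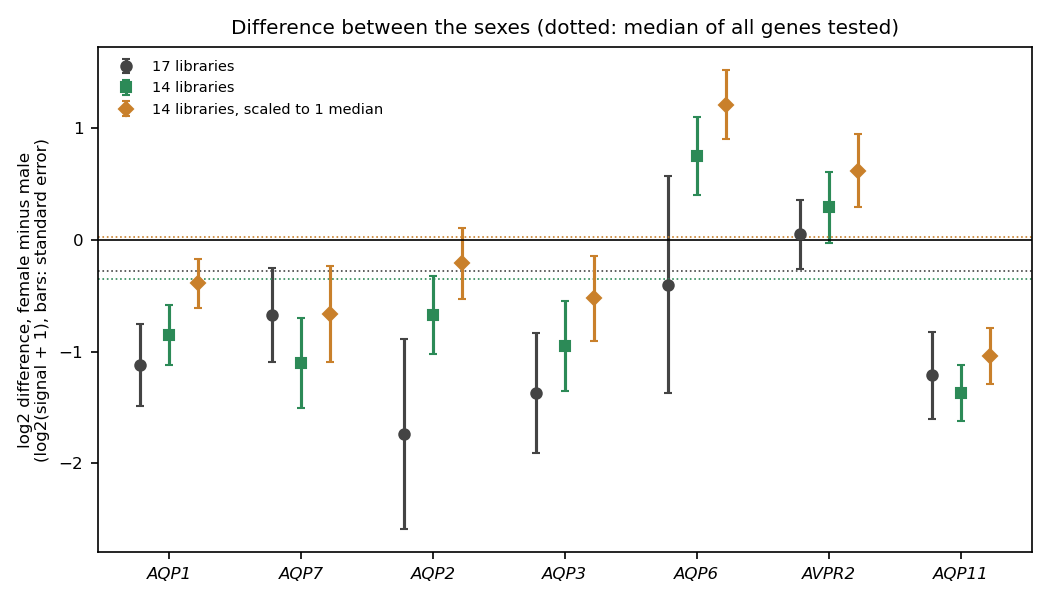
Log2 difference of each tested member, females minus males, with its standard error, over 17 libraries (circles), over 14 libraries (squares) and over 14 libraries scaled to 1 median (diamonds). Dotted lines give the median difference of all genes tested, -0.28, -0.35 and 0.03 in that order. AQP11 is below the line of all genes in each, and AQP6 lies below 0 over 17 libraries and above 0 in the other fits.

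Variants of AQP2 were split in similar shares. Variant X3 took 59.3% to 69.8% of AQP2 signal in the 6 females and 55.4% to 64.5% in the 8 males, with medians of 65.2% and 60.8%. Female 1, with an AQP2 signal of 2.13, and female 6, with 45.2, had the same 3 shares within 0.01 percentage points. Equal splits of this kind were found in 2.07% to 10.7% of genes with several transcripts for any pair of libraries, with a median of 3.63%. For female 1 and female 6 the share was 10.4% of 2431 genes, near the highest. How the deposited values were divided between variants is not given, and the source of these equal shares was not tested. AQP6 was almost wholly variant X3, at 97.2% to 99.98% in the 14 libraries.

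AQP4 (NC_018169.2, 18949283 to 18963355, minus strand, 1 transcript) is known from the basolateral membrane of principal cells, mostly in the inner medulla, and from fast skeletal muscle fibres. It had a signal of 17.0 in female 1, 72.9 in female 2 and 14.1 in male 6. In the other 14 libraries it was at most 0.112, in female 3, and it was listed at 0 in 8 of them. The order of the 3 muscle-rich libraries was that of ACTA1, the skeletal muscle actin, at 51800, 81700 and 35200. AQP4 did not reach a signal of 1 in 8 libraries and was not tested between the sexes.

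Across the 14 libraries without high muscle genes, 21 pairs of the 7 tested members were correlated on the log2(signal + 1) scale, and 3 pairs passed an adjusted p of 0.05. AQP2 and AQP3 were correlated, with a Pearson r of 0.921 (permutation test, p 1e-05, the smallest that 100000 resamples can give, adjusted p 0.00021) and a Spearman rho of 0.833 (permutation p 0.00029, adjusted p 0.00304). Leaving out the 2 libraries farthest from the AQP2 median gave an r of 0.852 (permutation test, adjusted p 0.0126). AQP7 and AQP11 had an r of 0.817 (permutation p 8e-05, adjusted p 0.00084) and a rho of 0.881 (permutation p 6e-05, adjusted p 0.00126). Without the 2 farthest libraries r was 0.746 and its permutation p, adjusted, 0.0506. AQP1 and AQP11 had an r of 0.691 (permutation p 0.00654, adjusted p 0.0458) and a rho of 0.798 (permutation p 0.00104, adjusted p 0.00728). Without the 2 libraries farthest from the AQP1 median r was 0.557 (permutation test, adjusted p 0.306) and rho 0.748 (permutation p 0.00696, adjusted p 0.058), and without female 3 r was 0.816 (permutation test, adjusted p 0.0084). With values centred within each sex the r of AQP1 and AQP11 was 0.324 (permutation test, adjusted p 0.336). Their centred rho was 0.578 (permutation p 0.0331, adjusted p 0.139), and neither passed. Their r was 0.162 in the 6 females and 0.635 in the 8 males (exact permutation tests, adjusted p 0.764 and 0.435). Their rho was 0.486 and 0.833 there (exact permutation tests, adjusted p 0.467 and 0.323). With so few libraries per sex a relation within the sexes was neither shown nor excluded.

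The same pairs were then taken within each sex. Among the 6 females AQP2 correlated with AQP3 at an r of 0.954 (exact permutation test, adjusted p 0.0292) and with AVPR2 at 0.954 (exact permutation test, adjusted p 0.0292). Their Spearman rho was 1.0 in both pairs (exact permutation p 0.00278, adjusted p 0.0194), so the 6 females had the same order in all 3 genes. AQP6 correlated with AQP3 at 0.918 (exact permutation test, adjusted p 0.0292). AQP3 also correlated with AVPR2 at 0.872 and with AQP7 at -0.802 (exact permutation tests, adjusted p 0.0365 and 0.0467). Markers of several cell types varied with the collecting duct genes, given as a description with no test. In these 6 females principal cell markers had an r of 0.98 with AQP2, 0.93 with AQP3, 0.92 with AVPR2 and 0.88 with AQP6. Thick ascending limb markers had 0.85 to 0.93 with the same 4 genes, and AQP6 had an r of -0.3 with intercalated cell markers. The 2 skeletal muscle markers, low in these libraries, had 0.83 to 0.90 with the 4 genes, and proximal tubule markers had -0.92 to -0.66. The part of cell composition in these correlations was not tested. Among the 8 males none of the 21 pairs passed, with an r of 0.656 for AQP2 and AQP3 and of 0.670 for AQP2 and AVPR2 (exact permutation test, adjusted p 0.435 for each). AQP6 and AQP2 had an r of 0.872 in females and -0.560 in males (exact permutation tests, adjusted p 0.0583 and 0.441), and the difference between the sexes was not tested. Female 3 was highest and female 6 lowest in all 4 collecting duct genes, and series A and B held too few males for a correlation within each.

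**Figure D5:**
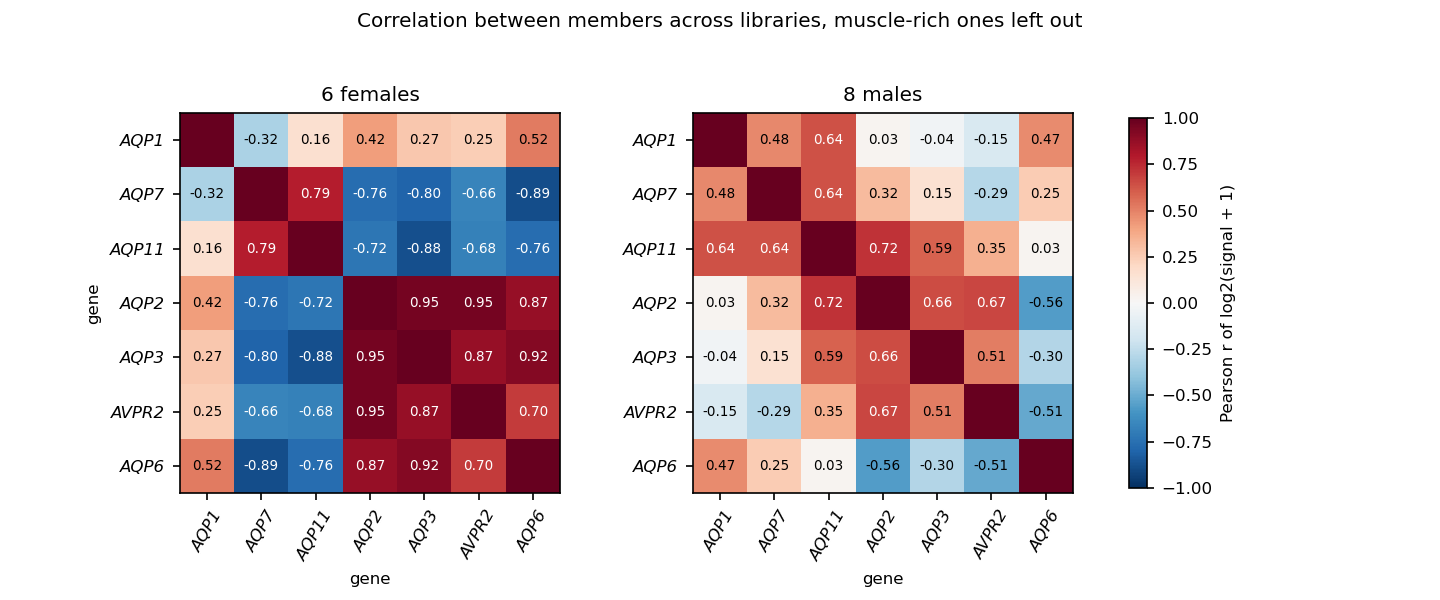
Pearson r of log2(signal + 1) between the 7 tested members within 6 females (left) and 8 males (right), muscle-rich libraries left out, on a scale from -1 (blue) to 1 (red). In females the collecting duct genes form a red block with r from 0.703 to 0.954, and in males AQP6 is negative with the other 3.

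The genes most like each member were found over the same 14 libraries, by the Pearson r of values centred within each sex, among 4707 genes of at least median level. Nearest to AQP1 were MAN2B1 and FUCA1, lysosomal enzymes that trim sugar chains, at 0.927 and 0.926, and HPS4 at 0.921. AQP7 was nearest to SLC6A18, an amino acid transporter of the proximal tubule, at 0.973, to GPT, alanine aminotransferase, at 0.971, and to SLC23A3 at 0.968. AQP11 was nearest to LOC103887268 and to ACAA2, an enzyme of mitochondrial fatty acid oxidation, both at 0.959, and to KCNMA1, a large-conductance potassium channel, at 0.948. AQP3 had AQP2 itself among its 3 nearest, at 0.902, after ITIH5 at 0.936 and ELF5, a transcription factor of principal cells, at 0.926. FEM1B, THAP4 and ITGB1BP1 were nearest to AQP2, at 0.918, 0.915 and 0.909. THAP4 was also nearest to AVPR2, at 0.929, followed by LRRFIP1 at 0.927 and VIRMA at 0.925. For the latter pair r was 0.197 and 0.181 in the 8 males, against 0.993 and 0.978 in the 6 females. APBB1, IFT140, a protein of transport in cilia, and CASZ1 were nearest to AQP6, at 0.922, 0.894 and 0.886. Some transcripts of THAP4, LRRFIP1 and VIRMA were left out because they were in 1 table only.

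Of 76 other genes listed for the vasopressin and water pathway, 48 were in both tables and all 48 were tested. Over 17 libraries 7 of the 48 were called, all higher in males, a share near the 13.6% of all genes called and the 13.2% called as higher in males. The list's median difference was -0.51, beside -0.28 for all genes. AVPR1A, the V1a vasopressin receptor, averaged 1.98 ± 1.46 (SD, n = 8) over females and 5.42 ± 2.55 (SD, n = 9) over males in signal, which gave a log2 difference of -1.12 and an adjusted p of 0.0339 (limma). PRKACB, a catalytic subunit of the kinase that cyclic AMP activates, differed by -0.99 (adjusted p 0.0144). AKAP11, an anchor of that kinase, had 4.34 ± 1.43 (SD, n = 8) and 11.1 ± 3.65 (SD, n = 9), a difference of -1.17 (limma, adjusted p 0.00429).

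The other 4 called pathway genes serve vesicle traffic. SNAP23, a fusion protein of vesicles at the cell membrane, had 6.21 ± 3.6 (SD, n = 8) over females and 18.1 ± 5.97 (SD, n = 9) over males, a log2 difference of -1.54 (limma, adjusted p 0.00794). MYO5B, a motor of recycling vesicles, differed by -1.50 (adjusted p 0.0306). STX3, a syntaxin, differed by -1.23 (adjusted p 0.0476) and RAB5C, a small GTPase of early endosomes, by -0.68 (adjusted p 0.0296). For STX3 and SNAP23 some transcripts were in 1 table only and were left out. Beside the 13.6% of all genes called, 4 of 14 traffic genes tested were called, 2 of 9 kinases and anchors, 1 of 5 receptors, and 0 of 9 transcription factors and of 4 cyclase and phosphodiesterase genes (limma).

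Without the muscle-rich libraries 24 of the 48 pathway genes were called, 23 higher in males, where 39.3% of all genes were called and 37% as higher in males. The list's median was -0.48, beside -0.35 for all genes. RAPGEF3, a target of cyclic AMP named here after its values were seen, was the 1 higher in females, at 0.55 (limma, adjusted p 0.0330). With the 14 libraries scaled to 1 median 17 were called, 11 higher in females and 6 in males, where 30.3% of all genes were called, 15.1% as higher in females and 15.2% as higher in males. The scaling moved the median of all genes to 0.03 and that of the list to -0.10. PRKACB, AKAP11, SNAP23 and MYO5B were among the 6. Scaling all 17 libraries, which left 4.13% of all genes called, left 2 of the list, AKAP11 and SNAP23.

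In the authors' deposited table of females, 6 of the 13 member transcripts were in the tan module, a colour the authors gave to a group of co-expressed transcripts. These were the 3 AQP2 variants, AQP3, AQP6 variant X3 and AVPR2, and tan held 12.2% of all transcripts in that authors' deposited table. In the authors' deposited table of males AQP2 variants X1 and X3 shared the brown module with AQP3, while AVPR2 was in magenta and AQP6 variant X3 in black. Brown, which also had AQP7 variant X2, held 9.5% of the male transcripts available here. AQP4 and AQP7 variant X1 shared a module in both of the authors' deposited tables, blue in females and turquoise in males. These were large modules, with 41.7% of the female transcripts and 28.5% of the male transcripts available here. AQP7 variant X3 was also in blue in females.

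Among the males without high muscle genes, male 5 was aged 13 and the other 7 were aged 6 to 8. All 8 members had values in male 5 within the range of those 7.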

How the data were processed

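Stranded mRNA libraries were made from the biopsies, per the labels' protocols. Signal per transcript and library was deposited by the authors in 1 table for each sex, with a module colour, per the file headers. Partek is named in the submitters' processing notes; aligner, scaling and genome build: not given in the sources used here. The lowest deposited signal was 1, taken as an offset and subtracted. Only 0.012% of the values above it were whole, so no count test was run. Read depth is unknown, and no counting interval was given. The mean of 17 libraries had a lower edge at 2 over both tables, with 0 transcripts under it, and both were used as 1 joint table; a difference in scale between them cannot be told apart from sex.

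The male table was held in part (17119 complete rows against 26644), and transcripts in 1 table only were not used. Values were summed per gene symbol, and genes reaching a signal of 1 in 8 libraries were kept. These were tested with limma 3.58.1 in R 4.3.3 on log2(signal + 1), with a trend, at an adjusted p of 0.05, after the script was tested on simulated data. Differences on that scale understate the change of low genes. Relative levels used two-sided exact permutation tests, and correlations 100000 resamples, or all orders within a sex, in Python 3.11.15. Named genes are the members, the called pathway genes and the 3 genes most like each member. Members and gene lists were chosen with earlier results of these data known. Alternatives were other pseudocounts, filters and scalings, age as a term, single male series and leaving out libraries.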

Additional observations from a re-analysis of the deposited data

Results flagged for a closer look

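Of 16 sets of a member within a sex, 6 had a highest or lowest library whose gap to its neighbour was large for the range of the set, where chance gives about 5% of sets. Male 6 accounted for 4 of these, and since it had already been set apart as muscle-rich, these 4 are not to be read against that rate. In the males it was lowest in AQP2, at 42.6 against 141.1 in male 4, and lowest in AQP6, at 8.8 against 44.1 in male 3. It was also lowest in AQP11, at 0.0174 against 4.09 in male 2, and highest in AQP4, at 14.1 against 0.0918 in male 7. Female 3 was lowest of the females in AQP7, at 1.8 against 15.6 in female 8. Male 2 was lowest of the males in AQP7, at 17.2 against 28.5 in male 4, while its proximal tubule marker level of 7.87 was within the range of the other males.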

How the results depend on the processing

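No paired analysis was possible because each animal gave 1 library and the labels tie no female to a male. The alternatives on single series, age and left-out libraries among the 14, the centred correlations and those without female 3 were chosen after the data were seen. Over 17 libraries 1276 genes and 7 pathway genes were called. A filter minimum of 10 gave 770 genes. Median scaling gave 387 and 2, upper quartile scaling 359 and 2, series A 642 and 3, series B 1 and 0, age as a term 1 and 0. The 14 libraries gave 3612 and 24, and 2783 and 17 with median scaling. Leaving out single libraries gave 638 to 2333 genes, the extremes without male 9 and male 6, and 3 to 11 pathway genes. Among the 14 it gave 3064 to 3954 and 18 to 25. There, series A gave 1869 and 10, and age 0 and 0.

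Over 17 libraries AQP11 was past the threshold no longer with a pseudocount of 0.1 (-1.73, adjusted p 0.18), median scaling (-0.90, 0.177), upper quartile scaling (-0.95, 0.154) or series B (-1.05, 0.389). AQP1 passed with a pseudocount of 10 (-1.10, 0.049), a filter minimum of 10 (-1.12, 0.0448), no trend (-1.12, 0.0489) and over the 14 libraries (-0.85), as AQP7 did over the 14 (-1.10). Signs turned for AVPR2 with a pseudocount of 0.1 (-0.09) and for AQP6 with one of 10 (0.00), over the 14 (0.75) and there with median scaling (1.21). With age as a term AQP1 (0.46), AQP2 (0.89), AQP3 (0.12), AQP6 (3.53) and AQP11 (0.80) turned, with adjusted p-values of 0.592 to 0.982; the cause was not tested. Without single libraries the ranges were -1.28 to -0.92 for AQP1 (past the threshold without female 3, female 4, female 7 or male 6), -0.87 to -0.26 for AQP7, -2.12 to -1.14 for AQP2, -1.70 to -1.05 for AQP3, -0.79 to 0.32 for AQP6, -0.13 to 0.28 for AVPR2 and -1.51 to -1.04 for AQP11.

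Over 14 libraries median scaling gave -0.39 for AQP1, -0.66 for AQP7 and 1.21 for AQP6. Age gave -0.63, -0.42 and -1.01 for AQP1, AQP7 and AQP11. Series A gave -0.57 for AQP1 and -1.0 for AQP7, and series B -1.27 for AQP7. Without single libraries the ranges were -0.97 to -0.72 (AQP1, past the threshold in 12 of 14), -1.29 to -0.61 (AQP7, in 7), -0.94 to -0.34 (AQP2), -1.29 to -0.64 (AQP3, past it without female 3, female 4 or male 4), 0.50 to 0.89 (AQP6, past it without male 4), 0.09 to 0.66 (AVPR2) and -1.56 to -1.18 (AQP11).

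Relative to markers, leaving out the muscle-rich libraries brought past the threshold AQP1 (1.31), AQP7 (1.06), AQP3 (-0.73), AQP6 (1.11) and AVPR2 (0.51). Leaving out female 3 too gave AQP1 0.60, AQP7 0.91, AQP2 -0.56, AQP3 -0.91 and AVPR2 0.47, all past it.

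Correlated pairs numbered 3, against 5 within females, 0 within males, 7 with median scaling, 1 without the 2 farthest libraries, 5 when centred by sex and 3 without female 3. The r of AQP1 and AQP7 turned within females (-0.32) and when centred (-0.08). AQP6 turned within males with AQP2 (-0.56), AQP3 (-0.30) and AVPR2 (-0.51), and with AQP2 and AQP3 under median scaling (-0.03 and -0.01), with AQP2 without the 2 farthest libraries (-0.03) and without female 3 (-0.24), and with AQP3 without female 3 (-0.17).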

Other observations

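AVP, the gene of vasopressin itself, and AVPI1, a gene named for its induction by vasopressin, were looked up after values were seen. AVP signal was 0 in female 1 and female 2, 2.05 in male 6 and 2.86 to 17.5 in the other 14 libraries, with the highest in male 1. AVPI1 was 15.0, 20.8 and 10.8 in the muscle-rich libraries and 0.913 to 3.22 in the others; AVP was thus lower and AVPI1 higher there than in the other 14. AQP8, the 1 other aquaporin tested, had a signal of 0.208 to 2.81 in the 14 libraries and a log2 difference of -0.37 over 17 (limma, adjusted p 0.442).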
